A study of Mus musculus with 50 samples.

Results

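The Swiss lineage group holds the inbred mouse strains SJL/J, SWR/J, FVB/NJ and BUB/BnJ, chosen by their strain labels, which gave 8 of the 50 arrays and 4 of the 25 strains in the series. They were compared with 38 arrays of 19 strains: 129S1/Sv1mJ, A/J, AKR/J, BALB/CByJ, BTBT T+tf/J, C3H/HeJ, C57BR/cdJ, C58/J, CBA/J, DBA/2J, KK/HIJ, MRL/MpJ, NOD/LtJ, NON/LtJ, NZO/HILtJ, NZW/LacJ, P/J, RIIIS/J and c57BL/6J. The 4 arrays of SM/J and PL/J were left out. All mice were naive wildtypes 2 months old, and each array carried dorsal root ganglion RNA pooled from 3 mice of 1 sex and 1 strain. Every strain gave 1 male and 1 female pool, so that a strain is represented by 1 genome and the strain, not the array, was the replicate (4 against 19). P-values below measure the spread between strains. The labels name strains only. The grouping rests on breeding history, and by that history NOD/LtJ and NON/LtJ, which stood in the comparison group, also descend from outbred Swiss stock.

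Dorsal root ganglia hold the cell bodies of the sensory neurons of the trunk and limbs, among them the nociceptors that report painful stimuli, each wrapped by satellite glial cells. Inbred strains of a shared stock were brought to homozygosity separately, so that each fixed its own set of alleles, and strains of 1 lineage carry both shared and private variants. The series title concerns the nicotinic receptor subunit gene Chrna6 and the purinergic P2X2/3 receptors, in the setting of pain sensitivity across strains. The comparison described here asks which transcripts lay on the same side of the other strains in all 4 Swiss strains.

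The tissue label was borne out by sensory neuron genes in every array of the group. Across the 8 Swiss arrays the log2 intensity ran from 9.39 to 10.04 for Isl1 and from 8.32 to 9.73 for Pou4f1, both sensory neuron transcription factors, and from 9.14 to 9.79 for Scn10a, the nociceptor sodium channel. Of the probe sets tested, 18823 to 19228 were above a log2 intensity of 4 in the Swiss arrays and 18673 to 19206 in the other arrays. One Swiss array stood apart by a sex transcript. The SWR/J pool labelled male had a log2 Xist intensity of 6.73, and 5 male pools of other strains were also above 4 for this transcript, which female cells make from the inactive X chromosome. The Y-linked transcript Eif2s3y was at 6.37 or more in all male pools compared. For the genes named below, calls that change without these 6 arrays are stated. Strain likenesses, list counts and overlaps are given with all arrays only. In bulk tissue, fewer cells of a type and less RNA per cell cannot be told apart.

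Over all transcripts, the 4 Swiss strains were not each other's closest strains. Strain profiles, taken as deviations from the mean of each sex, gave a mean Pearson r of 0.011 over the 6 pairs within the Swiss group, with a range of -0.076 to 0.10. The mean was -0.054 over the 76 pairs of a Swiss and another strain and -0.042 over the 171 pairs among other strains. These correlations run over 22205 probe sets and are given as a description, since probe sets are no replicates. SJL/J was most like 129S1/Sv1mJ, with an r of 0.30, SWR/J most like BTBT T+tf/J at 0.25, FVB/NJ most like NOD/LtJ at 0.15 and BUB/BnJ most like KK/HIJ at 0.089. SWR/J was next most like P/J, at 0.22. A sign of RNA quality, the log2 Gapdh signal at the 3 prime end minus that at the 5 prime end, was high in single pools of the same strains. It was 0.60 in the male BTBT T+tf/J pool and 0.34 in the female P/J pool, the highest of the arrays. Next came -0.09 in the female c57BL/6J pool and -0.21 in the female SWR/J pool. The pools of the other sex were lower, at -0.37 in BTBT T+tf/J, -0.65 in P/J, -0.48 in c57BL/6J and -0.56 in SWR/J. The SJL/J, FVB/NJ and BUB/BnJ pools ran from -0.69 to -0.45. The male and female profiles of SWR/J also had the lowest r of the Swiss strains, 0.22. The c57BL/6J profile gave an r of -0.13 with SWR/J, 0.19 with BTBT T+tf/J and 0.066 with P/J. The part of RNA quality in these likenesses was not tested. Pairs of closer profiles occurred elsewhere in the series, with an r of 0.39 for C3H/HeJ and CBA/J.

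**Figure D1:**
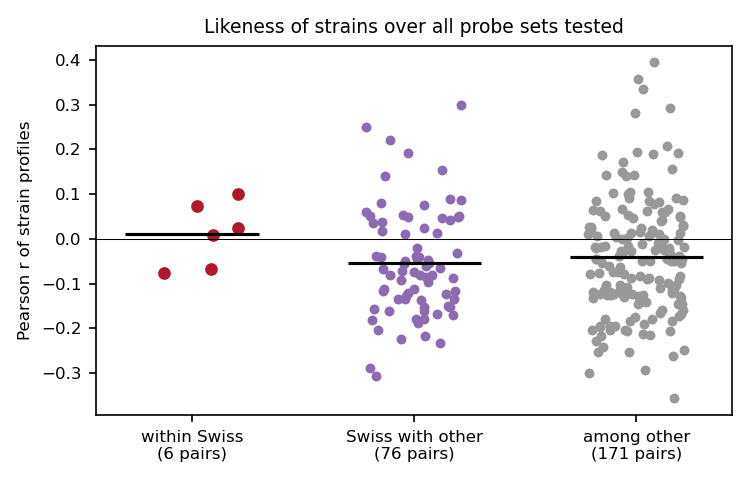
Pearson r between strain profiles over all 22205 probe sets tested (y axis), for pairs within the Swiss group, of a Swiss with another strain, and among other strains; points are pairs and lines are means. The 6 Swiss pairs lie between -0.076 and 0.10, inside the range of the other 2 kinds of pair.

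Very few transcripts were shifted in all 4 Swiss strains by more than the spread between strains. Of 22205 probe sets tested, limma called 3 lower in all 4 Swiss strains at an adjusted p under 0.05 (0.0135%) and 0 higher (0%). Before adjustment, 906 of the 22205 had a limma p under 0.05, among them 313 higher and 278 lower in all 4 strains. The 906 are a smaller share than this threshold lets through on average where nothing differs. The counts moved with the fit: limma over 46 arrays with strain as a random block called 9 higher and 25 lower, and leaving out 1 Swiss strain gave 1 (without FVB/NJ) to 12 (without BUB/BnJ) lower. Without the 6 male pools with Xist signal, 1 was higher and 8 were lower. By position alone, 1625 probe sets (7.32%) had all 4 Swiss strains above the mean of the other strains and 1926 (8.67%) had all 4 below it. The Swiss strains lay above all 19 other strains for 4 probe sets (0.018%) and below all of them for 5 (0.0225%). The median difference over the 11204 genes tested was 0.0012 log2 units, and the median standard error of a difference was 0.11.

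**Figure D2:**
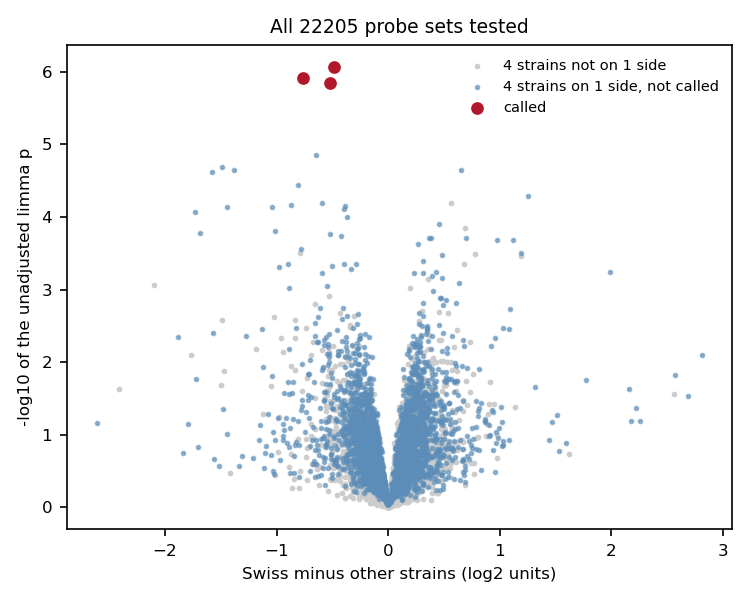
Difference between the mean of the 4 Swiss and the mean of the 19 other strains in log2 units (x axis) against -log10 of the unadjusted limma p (y axis) for all 22205 probe sets tested. The 3 called probe sets, in red, stand apart at the top left, and the probe sets with larger differences on either side have larger p-values.

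The 3 called probe sets were those of Nckap1, of AW209491 and of a transcript with no gene symbol in the probe table, 1455574_at. Nckap1 encodes a subunit of the WAVE regulatory complex, which controls the branching of actin filaments. Its log2 intensity was 11.06 in SJL/J, 10.72 in SWR/J, 10.99 in FVB/NJ and 11.02 in BUB/BnJ, while the other strains ran from 11.27 in A/J through a median of 11.42 to 11.70 in P/J. As strain means the groups did not overlap. Nckap1 was lower by 0.49 log2 units (swiss minus other -0.49, SE 0.07, 1.40-fold lower), with means of 10.95 ± 0.16 (SD, n = 4 strains) and 11.44 ± 0.12 (SD, n = 19 strains) and an adjusted limma p of 0.0106.

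AW209491, a gene named so far only by a sequence record, had log2 intensities of 7.48 in SJL/J, 7.10 in SWR/J, 7.29 in FVB/NJ and 7.32 in BUB/BnJ. The other strains ran from 7.44 in NOD/LtJ through a median of 7.82 to 8.06 in BALB/CByJ. NOD/LtJ was the only one of the 19 to reach into the Swiss range, below SJL/J. The difference was -0.52 log2 units (SE 0.08, 1.44-fold lower), with means of 7.30 ± 0.16 (SD, n = 4 strains) and 7.82 ± 0.14 (SD, n = 19 strains) and an adjusted limma p of 0.0106.

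Probe set 1455574_at had log2 intensities of 5.73 in SJL/J, 6.20 in SWR/J, 5.73 in FVB/NJ and 5.67 in BUB/BnJ, against 6.27 in A/J, a median of 6.62 and 6.94 in NZW/LacJ among the other strains. As strain means the groups did not overlap, and SWR/J lay nearest to the other strains. Single arrays did overlap, with the male SWR/J pool at 6.32 against a lowest male pool of 5.97 in the other strains. The difference was -0.76 log2 units (SE 0.12, 1.70-fold lower) with an adjusted limma p of 0.0106. In each of the 3 called probe sets the male and the female pools gave like differences, -0.47 and -0.51 for Nckap1, -0.49 and -0.55 for AW209491, and -0.78 and -0.74 for 1455574_at. All 3 calls were kept without the 6 male pools with Xist signal, and without P/J and BTBT T+tf/J. Each was lost in the female arrays alone and without 1 Swiss strain: Nckap1 without SWR/J (adjusted limma p 0.0918), AW209491 without SWR/J (0.122) or FVB/NJ (0.0607), and 1455574_at without FVB/NJ (0.0714). Nckap1 and 1455574_at were also lost in the male arrays alone, with adjusted limma p of 0.0507 and 0.259.

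**Figure D3:**
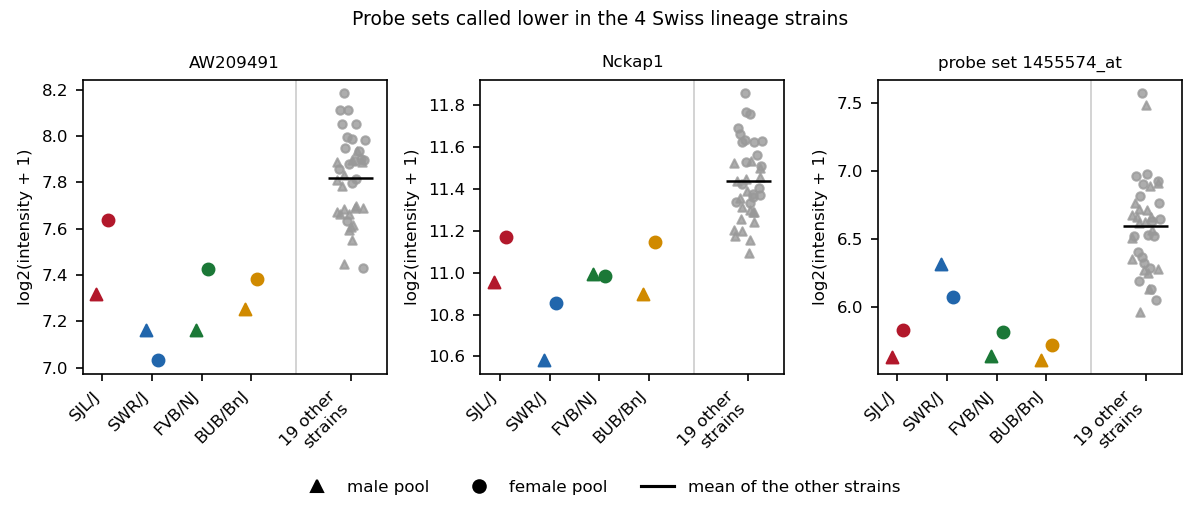
Log2(intensity + 1) in each array (y axis) for the 3 called probe sets: triangles are male pools, circles female pools, colours the 4 Swiss strains and grey the 19 other strains, whose mean is the line. For Nckap1 and 1455574_at every Swiss strain mean lies below every other strain mean, and for AW209491 the NOD/LtJ mean of 7.44 reaches below SJL/J.

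The promoter of AW209491 is shown as the start region of the called gene with an entry in the RefSeq promoter table (the first of 2 entries, build GRCm38.p6, chr13:14629995-14630294, plus strand, 250 bases before to 50 bases after the annotated start). Capitals mark a GC box, searched as GGGCGG on both strands and found here in reverse.

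AW209491: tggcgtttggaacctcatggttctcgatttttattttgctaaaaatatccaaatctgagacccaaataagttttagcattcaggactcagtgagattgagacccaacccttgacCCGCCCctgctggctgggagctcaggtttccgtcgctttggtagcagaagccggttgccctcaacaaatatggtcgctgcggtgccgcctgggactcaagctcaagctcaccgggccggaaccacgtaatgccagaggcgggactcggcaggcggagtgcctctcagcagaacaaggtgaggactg

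A GC box on either strand is in 35.7% of the 32851 promoters of this table. The CCAAT box (CCAAT), the TATA box (TATAAA) and the cAMP response element (TGACGTCA), searched the same way, had no match in this window. They are in 37.4%, 13.6% and 1.79% of the promoters, in that order. A match is a description of the letters only.

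Since fewer than 5 genes were called in a direction, the 10 genes with the smallest p in each direction and all 8 Swiss arrays on that side are described next. Over all probe sets tested, 397 (1.79%) had all 8 Swiss arrays above and 744 (3.35%) all 8 below the mean of the other arrays of their sex. None of these 20 genes passed the test, and their adjusted limma p ran from 0.0672 to 0.586. On the higher side, the pseudogene Ube2d-ps had log2 intensities of 6.79 in SJL/J, 6.86 in SWR/J, 6.99 in FVB/NJ and 6.77 in BUB/BnJ, against a median of 5.44 in the other strains. Of the other strains, C58/J at 6.81 was the one within the Swiss range. The difference was 1.25 log2 units (SE 0.25, adjusted limma p 0.100).

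Synm, which encodes the intermediate filament protein synemin, had values of 11.08, 11.44, 11.32 and 11.84 in SJL/J, SWR/J, FVB/NJ and BUB/BnJ, against 10.16 to 11.28 in the other strains with a median of 10.72. RIIIS/J reached into the Swiss range. The difference was 0.70 log2 units (SE 0.16, adjusted limma p 0.155), and the further probe set of Synm was also above the mean of the others in all 4 strains, by 0.46. Of the other genes on this side, Tekt2, a tektin of cilia and flagella, and Exd1, a component of the piRNA pathway, were low in level, with Swiss means of 3.86 and 4.86. Tekt2 differed by 1.12 and was called without the 6 male pools with Xist signal (adjusted limma p 0.0465). Mmaa, which serves vitamin B12 metabolism in mitochondria, differed by 0.43, Disp1, which releases hedgehog ligands, by 0.37 and Emc9, of the membrane protein insertion complex of the endoplasmic reticulum, by 0.31. Cyp4f39, a cytochrome P450, differed by 0.48 and the pseudogene Znf41-ps by 1.09. Crlf2, the receptor of thymic stromal lymphopoietin, lay above all 19 other strains as strain means, at 7.33 to 7.74 against a highest other value of 7.32 in NON/LtJ. Single arrays overlapped, and the difference of 0.49 had an adjusted limma p of 0.532.

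On the lower side, Rgs8, a regulator that shortens G protein signals, had log2 intensities of 5.32 in SJL/J, 5.96 in SWR/J, 5.20 in FVB/NJ and 4.89 in BUB/BnJ. The other strains ran from 5.65 in DBA/2J through a median of 6.94 to 7.39 in MRL/MpJ, and DBA/2J was the one below SWR/J. The difference of -1.38 log2 units (SE 0.26) had an adjusted limma p of 0.0672.

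Glul encodes glutamine synthetase, which satellite glia use to take glutamate out of the tissue. Its values were 9.67 in SJL/J, 10.28 in SWR/J, 10.09 in FVB/NJ and 10.29 in BUB/BnJ, against 10.03 to 10.90 with a median of 10.75 in the other strains. DBA/2J was the one other strain within the Swiss range. The difference was -0.59 log2 units (SE 0.12, adjusted limma p 0.100), and a further probe set of Glul lay 0.45 below the other strains, with all 4 strains on that side. Without the 6 male pools with Xist signal, Glul was called, with a difference of -0.68 and an adjusted limma p of 0.0189. Yae1d1, an adaptor in the loading of iron-sulfur clusters, differed by -0.81 (SE 0.16, adjusted limma p 0.0896, and 0.0245 without those pools). Atl3, which shapes the endoplasmic reticulum, differed by -0.37 and was likewise called without them (0.0465).

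Fgf1, a growth factor made by sensory neurons, had all 4 strains below the mean of the others, but its difference of -1.73 log2 units rested on SWR/J at 7.61 and FVB/NJ at 7.87. SJL/J at 10.83 and BUB/BnJ at 10.85 were within the range of the other strains, 10.57 to 11.31. A further probe set of Fgf1 had the same split, with 6.82 in SWR/J and 7.26 in FVB/NJ against 9.75 in SJL/J and 9.87 in BUB/BnJ. The other genes on the lower side were Sox2ot, a noncoding transcript that spans Sox2 (-1.44), Dynlt1f, a dynein light chain (-1.04), Trim62, a ubiquitin ligase (-0.52), Gprasp2, which sorts G protein-coupled receptors (-0.42), and Exoc7, of the exocyst that tethers secretory vesicles (-0.39). Exoc7 lay below all 19 other strains as strain means, at 6.68 to 6.93 against a lowest other value of 6.95 in C58/J, while single arrays overlapped. The Trim62 difference stood in 1 of 3 tested probe sets, since the others gave -0.02 and 0.01.

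**Figure D4:**
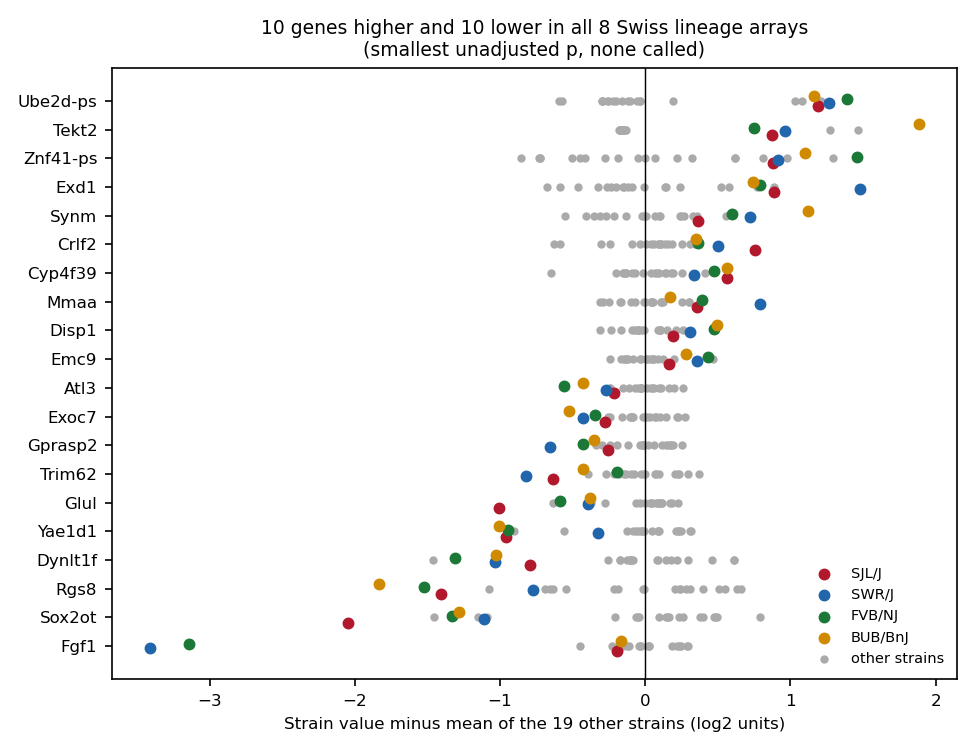
Strain value minus the mean of the 19 other strains in log2 units (x axis) for the 20 genes that did not pass the test; colours are the 4 Swiss strains and grey points the other strains. Each Swiss point lies on 1 side of 0 for its gene, grey points reach among the Swiss points for most genes, and for Fgf1 only SWR/J and FVB/NJ stand away from 0.

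Among all 11204 genes, 23 (0.205%) had each of the 4 Swiss strains at least 0.5 log2 units above the mean of the other strains and 12 (0.107%) at least 0.5 below it. These genes were taken by size, with no test, and none of the 35 was called. Many owe their place to other strains that lay far down, with the Swiss strains near the rest. Cap1, which binds actin monomers, was 10.58 to 10.80 in the Swiss strains against a mean of 8.47 ± 2.35 (SD, n = 19 strains), yet the median of the other strains was 10.28 and 9 of them were more than 2 log2 units below the Swiss mean. Pdxdc1, Zfp945 and H2-K1 likewise had a Swiss strain at or under the median of the others. Measured from the median of the other strains, 8 of the 23 higher and 8 of the 12 lower genes kept a shift of 0.5 in each strain. The 8 higher genes were Cela1, Ift122, Exd1, Il6st, Znf41-ps, Tekt2, Ube2d-ps and Tmem267. The 8 lower genes were Cnmd, Gng4, Sox2ot, Rgs8, Dynlt1f, Mndal, S100a7l2 and Cda. For each of these higher and lower genes, other strains also lay in the Swiss range or past it. They numbered 9 for Mndal, 7 for Ift122 and for S100a7l2, and 6 for Cda and for Cela1. There were 4 for Gng4 and for Tmem267, and 1 to 3 for the rest. Mndal was low in level, at 3.16 to 3.26 in the Swiss strains.

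Il6st encodes gp130, the signalling receptor shared by the interleukin 6 family of cytokines. Its log2 intensity was 11.80 in SJL/J, 11.91 in SWR/J, 11.46 in FVB/NJ and 11.29 in BUB/BnJ, against 9.13 in c57BL/6J, a median of 10.72 and 11.77 in NZO/HILtJ among the other strains. The difference was 1.08 log2 units (SE 0.33) and did not pass the test (adjusted limma p 0.777). Its 3 further tested probe sets were above the mean of the others in all 4 strains, by 0.21, 0.33 and 0.45. Set against the median of the others, only the first had all 4 strains above it. BUB/BnJ lay below the median in the second, at 8.53 against 8.75, and in the third, at 6.71 against 6.92. Cnmd, which encodes the vessel growth inhibitor chondromodulin, was 4.22 to 4.85 in the Swiss strains against a median of 6.97, with 3 other strains in the Swiss range or below it and a difference of -1.88 (SE 0.60, adjusted limma p 0.826). Gng4, a G protein gamma subunit, was 2.97 to 4.50 against a median of 5.68 (difference -1.57, adjusted limma p 0.826).

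Grik1 encodes GluK1, the kainate receptor subunit of small sensory neurons. The leading probe set, that of the highest mean, was 10.57 in SJL/J, 10.57 in SWR/J, 10.46 in FVB/NJ and 10.50 in BUB/BnJ, above all 19 other strains, of which C58/J was highest at 10.45. The groups did not overlap as strain means, while single arrays did, and the gap was small beside the spread of the other strains (10.22 ± 0.36, SD, n = 19 strains), and the adjusted limma p was 1.0. A second Grik1 probe set was 7.60, 7.60, 7.85 and 7.25 in the same strains. Among the other strains it was above 6 in 7 (A/J, BTBT T+tf/J, C3H/HeJ, DBA/2J, NOD/LtJ, NON/LtJ and c57BL/6J), below 4 in 10 and between in 2. All 4 Swiss strains lay with the 7 strains of high signal, and the difference of 2.81 log2 units (SE 0.97) had an adjusted limma p of 0.913.

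Of 7 class I and peptide loading genes of the major histocompatibility complex tested, which serve the display of peptides to T cells, 3 were higher (H2-K1, H2-D1 and H2-M3) and 1 lower (Tap2, -0.05) in all 4 Swiss strains. Over all genes, 7.77% were higher and 8.52% lower in all 4 strains, and the list median was 0.05. The large differences were those of H2-K1 and H2-D1, which were picked after their values were seen. H2-K1 was 8.79 in SJL/J, 10.46 in SWR/J, 10.27 in FVB/NJ and 10.81 in BUB/BnJ, against 5.12 to 9.44 in the other strains. SWR/J, FVB/NJ and BUB/BnJ lay above every other strain, and SJL/J lay within them. H2-D1 had the same order, with 9.14 in SJL/J and 11.02 to 11.49 in SWR/J, FVB/NJ and BUB/BnJ. The other strains ran from 6.75 to 10.17 with a median of 9.72, above SJL/J. The adjusted limma p was 1.0 for both. Probe sets of these genes disagreed in sign: of the 9 for H2-D1, 8 were tested. Against the mean of the others, 4 were higher and 4 lower in all 4 Swiss strains. In the lower sets with differences of -0.88, -0.80 and -1.02, only A/J, BALB/CByJ and DBA/2J were above 6. The 16 further other strains were below 4, as were the Swiss strains. For the set at -0.80, the Swiss values of 3.4015 to 3.4938 lay above the median of the others, 3.3997. In the set at -1.56, 6 other strains were above 6, and the Swiss values of 3.66 to 4.23 lay around a median of 4.01. For H2-Aa of class II, the leading probe set was lower by 0.15 while another was higher by 1.19 (adjusted limma p 0.203). The part of sequence differences under the probes was not tested. B2m, the common light chain of class I, differed by 0.05.

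**Figure D5:**
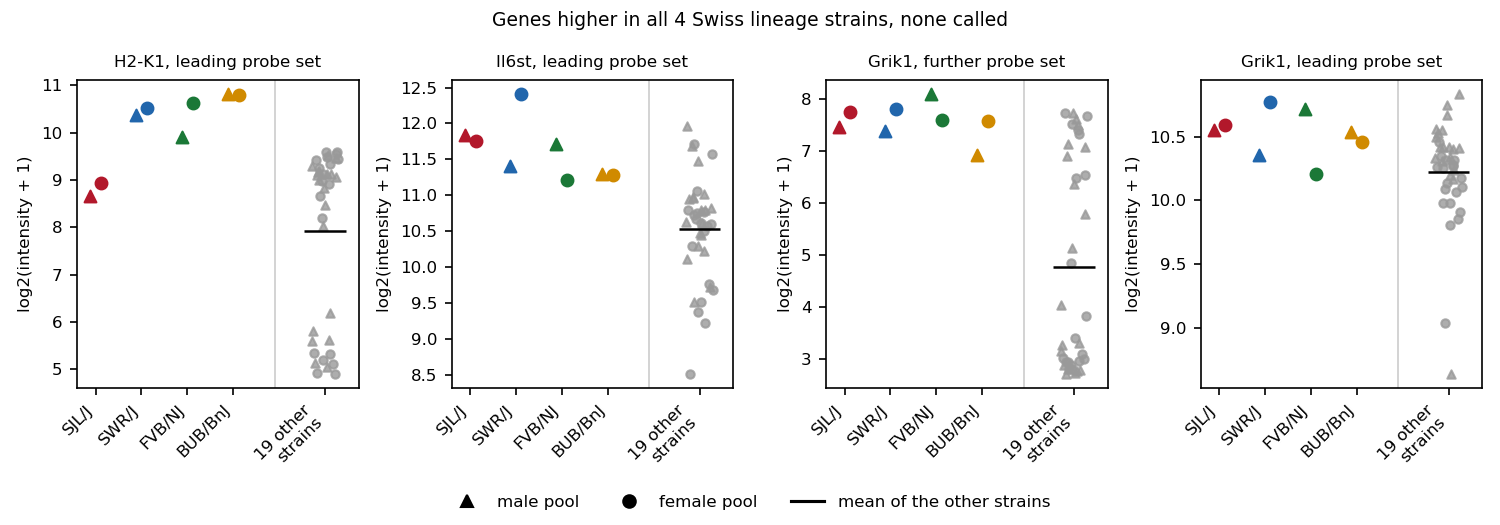
Log2(intensity + 1) in each array (y axis) for H2-K1, Il6st and both Grik1 probe sets; triangles are male pools, circles female pools, colours the Swiss strains, grey the 19 other strains and the line their mean. The other strains split into high and low groups for H2-K1 and the further Grik1 probe set, and the Swiss arrays lie with or above the high group.

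Neuronal gene lists ranged from none of their members to a share above that of all genes on 1 side in all 4 strains, and no member was called by limma. Beside 7.77% of all genes higher and 8.52% lower in all 4 strains, 0 of 12 pan-neuronal genes, 0 of 6 peptidergic and 0 of 8 non-peptidergic nociceptor markers, 0 of 8 itch neuron markers and 0 of 9 TRP, ASIC and Piezo channels lay on 1 side in all 4 strains. The sodium, potassium, calcium and GABA and glutamate lists had shares of 20% to 27.3%, beside 16.3% for all genes in both directions together. Of 10 sodium channel genes, the auxiliary subunits Scn2b (-0.60) and Scn3b (-0.13) were below the mean of the others in all 4 strains. The potassium channel genes Kcnj3 (-0.28), Kcns1 (-0.38) and Kcns3 (-0.22) were so too, of 15 tested. Of 11 calcium channel genes, Cacna2d1 (0.23) and Cacna2d2 (0.59), which encode the binding sites of gabapentin, were above it and Cacna1d (-0.15) below it. Of 11 GABA and glutamate receptor genes, Gabra3 (0.17) and Grik1 were above it and Grik5 (-0.06) below it. Each of these 11 differences had an adjusted limma p of 1.0.

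Of 15 synaptic vesicle genes, 4 were lower and 1 higher in all 4 strains (33.3%, beside 16.3% of all genes). The median of the list was 0.00014. Syt4, a synaptotagmin of dense core vesicles, was 9.69 in SJL/J, 10.43 in SWR/J, 9.83 in FVB/NJ and 10.22 in BUB/BnJ, against a median of 11.11 in the other strains, whose range of 9.61 to 11.33 took in the Swiss values. The difference was -0.88 (adjusted limma p 0.368). Cplx2, a complexin that clamps vesicle fusion, was 8.10 to 8.15 in the Swiss strains against 8.13 to 8.91.

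Markers of other cell types and tissues differed by list, and no member was called. The lowest list medians were -0.83 for granulocyte, -0.37 for adipose tissue, -0.23 for macrophage and -0.20 for red blood cell markers. Endothelial and mural markers (-0.14) and fibroblast and matrix markers (-0.13) followed. Medians above that of all genes were those of Schwann cell and myelin (0.08), secreted liver protein (0.07), skeletal muscle (0.0032) and bone and cartilage (0.20) genes. Of 10 Schwann cell and myelin genes, 0 lay on 1 side in all 4 strains, and of 7 satellite glia genes Glul and Fabp7 (-0.13) were lower. The summed satellite glia level was 14.39 to 14.45 log2 units in the Swiss strains and 14.22 to 14.71 in the others. The median of the others was 14.51, above all 4 Swiss sums, and Gfap was under 4 in all strains. A sum of linear values follows its brightest members. Whether fewer satellite glia or less Glul per cell lay behind the lower signal was not tested. Of 12 macrophage markers tested, Adgre1 (-0.28), C1qb (-0.39), C1qc (-0.34) and Cd163 (-0.40) were lower and Cx3cr1 (0.06) higher in all 4 strains, with a list median of -0.23 against 0.0012 for all genes. All 4 strains lay on 1 side for 41.7% of these markers, beside 16.3% of all genes. The summed macrophage level was 9.66 to 10.12 in the Swiss strains and 9.53 to 11.07 in the others, whose median was 10.16. Averaged over the 12 markers, the deviation from the mean of all strains compared was -0.19 in SJL/J and -0.29 in BUB/BnJ. It was -0.01 in SWR/J and -0.02 in FVB/NJ. The neutrophil granule genes S100a8 (-0.94), Ngp (-0.83) and Camp (-0.57) were lower in all 4 strains, 3 of 5 granulocyte markers tested beside 8.52% of all genes. All 5 differences lay between -0.94 and -0.57, with a median of -0.83, but the strains were split. The summed level was 8.59 in SJL/J and 7.41 in BUB/BnJ, but 9.50 in SWR/J and 9.33 in FVB/NJ. The other strains ran from 8.01 to 12.14 with a median of 9.65. Averaged over the 5 markers, the deviation from the mean of all strains compared was -0.99 in SJL/J and -1.58 in BUB/BnJ. It was 0.06 in SWR/J and -0.10 in FVB/NJ. None passed the test, and all these adjusted limma p were 1.0 but that of Glul. Of 9 skeletal muscle genes, 0 lay on 1 side in all 4 strains.

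The genes of the series title did not separate the Swiss strains. Chrna6 was 7.89 in SJL/J, 6.76 in SWR/J, 8.06 in FVB/NJ and 7.11 in BUB/BnJ, against 6.53 in KK/HIJ, a median of 7.27 and 9.49 in C3H/HeJ. SJL/J and FVB/NJ lay above the mean of the other strains and SWR/J and BUB/BnJ below it, with a difference of -0.28 (SE 0.49, adjusted limma p 1.0). P2rx3, a subunit of the ATP-gated channels of nociceptors, was 11.18 to 11.76 in the Swiss strains and 10.86 to 11.67 in the others, a difference of 0.01 (SE 0.11), whose sign turned to -0.22 with another probe set, -0.04 in the male arrays and -0.11 without SJL/J. P2rx2 was under 4 in all strains (difference -0.10, SE 0.11). Chrnb3, with means of 2.44 and 2.47, was too low to be tested.

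The lineage difference was also compared between the sexes. For the difference between males and females in the Swiss effect, limma called 0 probe sets (0%), with a lowest adjusted p of 1.0. Of the 22205 tested, 484 had an unadjusted limma p under 0.05, also a smaller share than this threshold lets through on average where nothing differs.

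Among other strains, NOD/LtJ lay past the midpoint towards the Swiss mean for 5 of the 23 probe sets called or described above as not passing, including AW209491, and NON/LtJ for 4. C58/J, DBA/2J and RIIIS/J, with no such descent, also had 4, and C57BR/cdJ had 0. In RefSeq gene order, 0 of the 2 called genes and 0 of the 35 genes shifted by 0.5 had a tested neighbour in the same set and direction. Sets this small among 11184 placed genes would seldom hold neighbours, so these counts cannot show whether shifted genes cluster. Of the 1821 placed genes with all 4 strains on 1 side, 328 had such a neighbour (18.01%). Each gene has a neighbour on either side, and 7.77% of all genes were higher and 8.52% lower in all 4 strains. Clustering was not tested.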

How the data were processed

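Expression was measured on 50 Affymetrix arrays. The authors deposited linear intensities between 1.63 and 36604. Per the submitters' processing notes, GCRMA and R 2.6.2 were used to make them. Depth does not apply to arrays, and the number of strains limits the precision. Here log2(intensity + 1) was taken, centred per probe set within each sex, and the male and female values of a strain were averaged. A probe set was tested when above 4 in at least 2 arrays, which kept 22205 of 45037 after 64 control probe sets were left out. The strains were compared with limma 3.58.1 in R 4.3.3 (lmFit, eBayes, two-sided, Benjamini-Hochberg over all probe sets tested). A call needed an adjusted p under 0.05 and all 4 Swiss strains on 1 side of the mean of the others.

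A gene is given by its probe set of exactly 1 symbol and highest mean, which gave 11204 tested genes of 18193. Named genes were to be the called genes shifted by at least 0.5 in each strain and on 1 side in all 8 arrays, up to 12 per direction. Chrna6, Chrnb3, P2rx2 and P2rx3, called list members, neighbours and genes unlike between the sexes were added, and, with under 5 calls in a direction, the 10 with the smallest p on 1 side in all 8 arrays. The other genes and probe sets were named after their values were seen, including those shifted by 0.5 in all strains, those without overlap, and the H2 genes. The groups and the gene lists were chosen with earlier results of these data known. A list's summed level is log2 of the sum of its members' linear values. On simulated data with strain spread as measured, the comparison recovered 8% of differences of 0.25 log2 units, 56% at 0.5, 90% at 1 and 98% at 2, of 50 each among 22205 probe sets, with 10 false calls. Values were drawn as independent and normal. So many shifted probe sets make the adjusted threshold looser than in the measured data, which gave 3 calls. These shares are therefore no recovery rates for the measured comparison, where Rgs8 (-1.38) and Sox2ot (-1.44) were not called.

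Alternatives were offsets, filters, scaling, sexes, strains left out and a fit over arrays.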

Additional observations from a re-analysis of the deposited data

Results flagged for a closer look

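In 2 of the 27 probe sets examined for it, 1 Swiss strain stood apart from the others by Dixon's criterion for 4 values (critical value 0.829), which chance exceeds in about 1 group of 20. Both were SWR/J, on the side of the other strains. Probe set 1455574_at was 6.20 in SWR/J against 5.67 to 5.73 in SJL/J, FVB/NJ and BUB/BnJ. Yae1d1 was 6.45 in SWR/J against 5.77 to 5.83 in the same strains.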

How the results depend on the processing

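The 3 lower calls were few enough to move with most choices. With 46 arrays and strain as a random block (consensus correlation 0.25) limma called 9 higher and 25 lower, including the 3. Lower calls were 6 with SM/J and PL/J kept, 7 with a filter of 6 in 8 arrays, 5 without NOD/LtJ and NON/LtJ, 8 without the male pools with Xist signal (added after seeing the data), 0 in female arrays and 0 where 1 log2 unit was required. Higher calls were 1 in male arrays, 2 with no filter, 1 after quantile normalization, 2 without NOD/LtJ and NON/LtJ and 1 without the male pools with Xist signal. Leaving out 1 Swiss strain gave 1 to 2 higher and 1 to 12 lower calls (1 without FVB/NJ, 12 without BUB/BnJ, 8 without SJL/J), and 0 to 1 for the difference between the sexes. Genes 0.5 above the median of the others (added after seeing the data) numbered 11 in place of 23. The sign turned for a further probe set of Trim62 (0.013) and for P2rx3 in male arrays (-0.039), without SJL/J (-0.11, to 0.083 without SWR/J) and with a further probe set (-0.22). The causes were not tested. The called probe sets kept their direction in all 18 settings and their call in 15. No paired analysis was possible because replicates are strains, which belong to 1 group only.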
